A study of Mus musculus with 8 samples.

Results

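The 10 genes described here carry iron across the lining of the small intestine or set how much is carried: the uptake genes Cybrd1 and Slc11a2, the export genes Slc40a1, Heph and Hephl1, the transferrin receptor Tfrc, the ferritin genes Fth1 and Ftl1, and the regulators Epas1 and Ireb2. They were taken by name from the 56941 genes of the count table, and every one of the 10 was found. Polyadenylated RNA of whole jejunum, the middle stretch of the small intestine, was sequenced from 4 libraries of C57BL/6 mice (B6, replicates 2, 3, 4 and 5) and 4 of C3H/HeJ mice (C3H, replicates 1, 3, 4 and 5). Both are common inbred strains, and C3H/HeJ mice carry a loss-of-function allele of the endotoxin receptor gene Tlr4. All animals were untreated (naive), and the strains shared cages for at least 8 weeks before tissue was taken. Their age is given as 6 to 8 weeks with no word on whether that is before or after the shared housing, so the age at sampling is not known from the labels. The groups differ in strain and share housing. The series is titled for work on anaphylaxis to food, and nothing in the labels concerns iron or diet. The labels put all 8 libraries in batch 1 and do not state that they are separate animals. What the tests measure is therefore the spread among the libraries sequenced, which may be technical.

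Dietary iron enters the absorptive cell of the gut, the enterocyte, at its brush border and leaves it at the basolateral side. Ferric iron is reduced by the cytochrome reductase Cybrd1 and imported by the divalent metal transporter Slc11a2. Inside the cell iron is stored in ferritin, a shell of heavy chains (Fth1) and light chains (Ftl1), or is exported by ferroportin (Slc40a1) and oxidised by hephaestin (Heph) for loading onto transferrin. Control acts on both messenger RNA and transcription. Iron regulatory proteins, Ireb2 among them, bind hairpins in messenger RNA called iron-responsive elements when iron is scarce: a hairpin in the 5′ UTR blocks translation, and hairpins in the 3′ UTR of Tfrc protect the RNA from decay. Epas1, a hypoxia-inducible factor, raises transcription of Cybrd1, Slc11a2 and Slc40a1 in enterocytes.

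Iron-responsive elements are shown because they separate members whose messenger level can be set by iron through RNA decay from members where the hairpin acts on translation, which RNA counts do not measure. The search was for a C, 5 bases, the loop CAGTGN ending in A, C or T, and 5 bases of which at least 4 pair with the first 5 (G-T pairs allowed), on the sense strand of GENCODE M21 transcripts of GRCm38. Such a match was found in a 5′ UTR of 0.695% of 20141 genes and in a 3′ UTR of 3.18% of 20868 genes, so a match in a 3′ UTR is not rare. Of the 10 genes 5 held at least 1 match, and the sequences, written 5′ to 3′ as DNA with the unpaired C and the loop in capitals, were:
Slc40a1, 5′ UTR: acttCagctaCAGTGTtagctaagttt
Fth1, 5′ UTR: cctgCttcaaCAGTGCttgaacggaac
Ftl1, 5′ UTR: cttgCttcaaCAGTGTttgaacggaac
Slc11a2, 3′ UTR of 1 isoform: ccatCagagcCAGTGTgtttctatggt
Tfrc, 3′ UTR: ttatCggaagCAGTGCcttccataatt
Tfrc, 3′ UTR: ttatCgggagCAGTGTcttccataatg
Tfrc, 3′ UTR: atatCggagaCAGTGAtctccatatgt
Tfrc, 3′ UTR: ttatCgggaaCAGTGTttcccataatt
No match to this pattern was found in a UTR of Cybrd1, Heph, Hephl1, Epas1 or Ireb2. The pattern is strict and misses elements of any other form, so these genes cannot be said to lack an iron-responsive element. The Slc11a2 match paired at 4 of the 5 stem positions and is shown from 1 isoform, the transcript Slc11a2-205. Only the first transcript with each sequence was recorded, so other isoforms may hold it too. The transcripts are those of the B6-derived reference genome, so differences carried by C3H are not seen in them.

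Measured in CPM (counts scaled to a common library size, adjusted between libraries by the TMM method), 3 of the 9 testable genes were higher in C3H: Cybrd1, Slc40a1 and Slc11a2. No member was called lower in C3H by edgeR (1, Heph, was at an unadjusted p under 0.05 and with DESeq2, and 0 were with limma-voom), and 6 did not pass the test. Called here means an adjusted p under 0.05 in edgeR's quasi-likelihood test, adjusted over all 18025 genes tested. By the same rule 21.4% of those 18025 genes were called, 11.3% higher and 10.1% lower in C3H. Hephl1 was too scarce to test. The median log2 fold change of the 9 genes was 0.29, against 0.03 over all genes tested. In the same 3 genes, and in no other member, all 4 C3H libraries lay above all 4 B6 libraries, as they did in 12.7% of all genes tested. The strains were apart in either direction in 24.4% of genes, with C3H below in 11.7%.

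**Figure D1:**
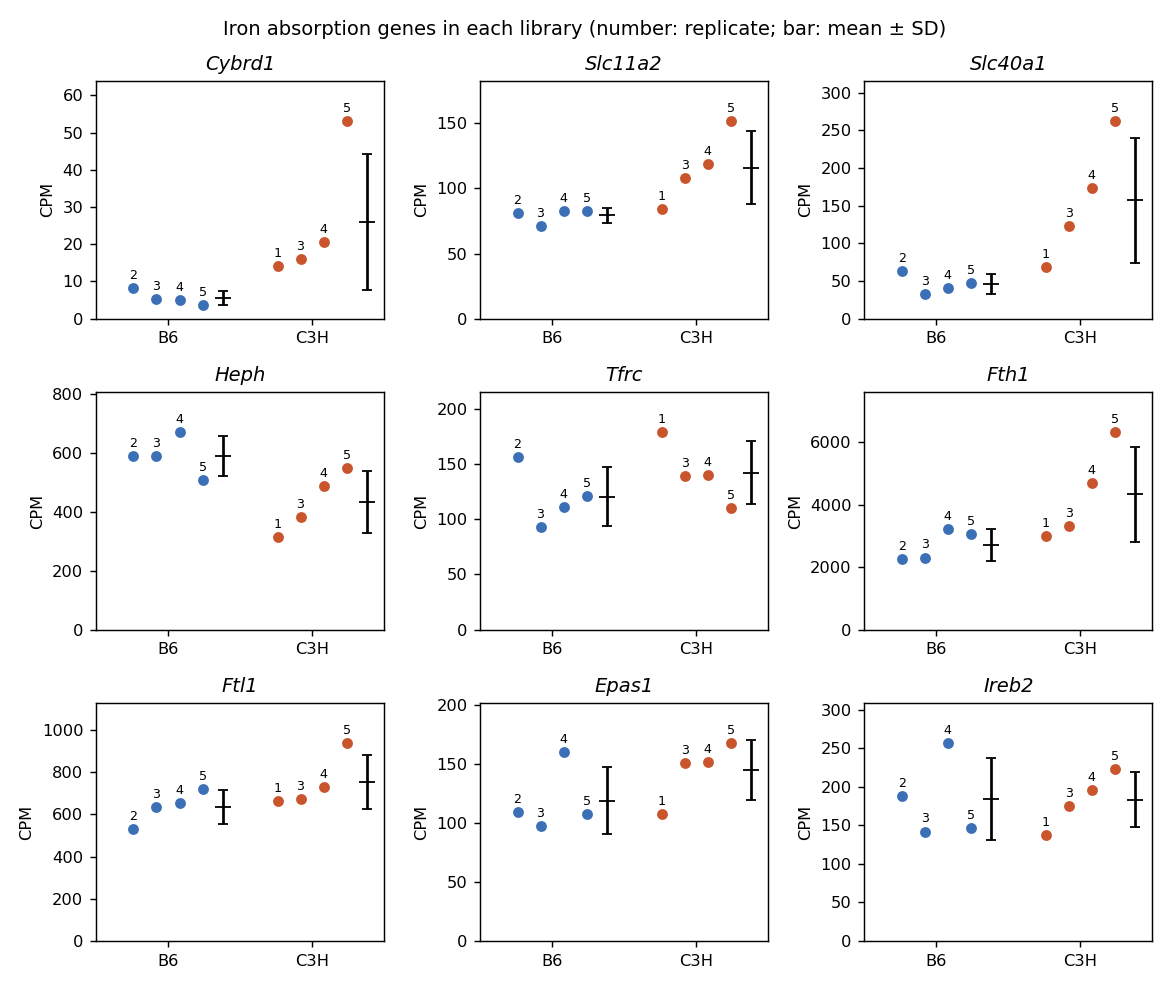
CPM of the 9 testable iron absorption genes in each library, B6 in blue and C3H in orange, with replicate numbers above the points and bars for mean ± SD. The C3H points lie wholly above the B6 points for Cybrd1, Slc11a2 and Slc40a1, and C3H 5 is the highest C3H library in every panel except Tfrc.

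Cybrd1 (ENSMUSG00000027015, chromosome 2), the ferric reductase of the brush border, had the largest strain difference among the members. Its level was 8.23, 5.39, 5.08 and 3.73 CPM in B6 replicates 2, 3, 4 and 5, and 14.2, 15.9, 20.7 and 53.2 CPM in C3H replicates 1, 3, 4 and 5. Every C3H library was above every B6 library, and C3H 5 stood well above the other C3H libraries. The means were 5.61 ± 1.89 CPM in B6 and 26 ± 18.3 CPM in C3H (SD, n = 4 each), a log2 fold change of 2.22 ± 0.41 (SE) or 4.65-fold (edgeR adjusted p = 0.00253). The counts behind these levels ran from 201 to 310 per B6 library and from 725 to 1980 per C3H library. Without C3H 5 the difference was 3.03-fold (log2 fold change 1.60, adjusted p = 0.000786).

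The promoter of Cybrd1 is shown because the gene is a known target of hypoxia-inducible factors and had the largest difference. In RefSeq's GRCm38.p6 the 250 bases before its start site lie at chr2:71117804-71118053 on the plus strand, and the core of the hypoxia response element was searched in them as ACGTG or GCGTG on both strands. One match, in capitals, begins 161 bases before the start:
Cybrd1 promoter: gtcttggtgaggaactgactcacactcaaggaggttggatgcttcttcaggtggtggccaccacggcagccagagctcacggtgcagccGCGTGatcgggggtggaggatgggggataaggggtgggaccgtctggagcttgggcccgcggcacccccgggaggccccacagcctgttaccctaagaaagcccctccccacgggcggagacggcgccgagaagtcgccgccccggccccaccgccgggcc
At least 1 such core was present in 38.6% of 32851 windows of the same length, so its presence does not set this promoter apart. Windows were at hand for 6 of the 10 members.

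Slc11a2 (ENSMUSG00000023030, chromosome 15) imports ferrous iron together with protons. It measured 80.8, 70.8, 82.7 and 82.6 CPM in B6 2, 3, 4 and 5, and 84.5, 108, 119 and 152 CPM in C3H 1, 3, 4 and 5. The B6 libraries were close together and the lowest C3H library sat just above them. Its mean was 79.2 ± 5.65 CPM in B6 and 116 ± 28 CPM in C3H, a log2 fold change of 0.55 ± 0.15 or 1.46-fold (edgeR adjusted p = 0.0241). The call was lost without B6 2 (log2 fold change 0.54, adjusted p = 0.0553), without B6 3 (0.50, adjusted p = 0.0740) and without C3H 4 (0.53, adjusted p = 0.0571), with the size of the difference little changed.

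Slc40a1 (ENSMUSG00000025993, chromosome 1) encodes ferroportin, the only known cellular iron exporter. Its level was 63.2, 33.2, 40.3 and 47 CPM in B6 2, 3, 4 and 5, and 68.6, 123, 173 and 263 CPM in C3H 1, 3, 4 and 5. C3H 1 was little above the highest B6 library, B6 2, and the other C3H libraries were clear of B6. The means, 45.9 ± 12.9 CPM in B6 and 157 ± 82.5 CPM in C3H, differed by a log2 fold change of 1.77 ± 0.35 or 3.42-fold (edgeR adjusted p = 0.00360). Slc40a1 carries its element in the 5′ UTR, printed above, and macrophages that recycle red blood cells also express it. Of 10 macrophage markers 2 were called, both higher in C3H, where 21.4% of all genes were called, and 6 of the 10 had a log2 fold change above 0. Their summed level was 548 to 662 CPM in B6. In C3H 1, 3, 4 and 5 it was 527, 552, 632 and 683 CPM, the same order as Slc40a1. Mertk, named after its values were seen, made up the largest share of that sum, at 209 to 343 CPM in B6 (log2 fold change -0.27, adjusted p = 0.361). It measured 148, 192, 228 and 263 CPM in C3H 1, 3, 4 and 5, and no other marker of the list had the order of Slc40a1. The part of macrophages in the Slc40a1 difference was not tested. The called markers were Csf1r, the receptor for the macrophage growth factor (1.27-fold, adjusted p = 0.00933), and the complement gene C1qa (1.39-fold, adjusted p = 0.0185, lost without B6 2 or C3H 4).

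Heph (ENSMUSG00000031209, chromosome X), the copper-dependent oxidase that works with ferroportin, was not higher in C3H. Heph measured 591, 589.7, 672 and 508 CPM in B6 2, 3, 4 and 5, and 316, 384, 488 and 549 CPM in C3H 1, 3, 4 and 5. C3H 1, 3 and 4 were below every B6 library and C3H 5 was within the B6 range. The means were 590.4 ± 67.0 CPM in B6 and 434 ± 104 CPM in C3H, a log2 fold change of -0.44 ± 0.16 that did not pass the test (edgeR adjusted p = 0.0813). It passed with DESeq2 (-0.46, adjusted p = 0.0259), with library totals as the only scaling (-0.40, adjusted p = 0.0250), with no filter on low counts (-0.48, adjusted p = 0.0348) and without C3H 5 (-0.58, adjusted p = 0.0232). Hephl1 (ENSMUSG00000031936, chromosome 9), a related oxidase, was close to absent from the counts, with 15 counts in B6 as a whole (exact 95% Poisson interval 8.4 to 24.7) and 9 in C3H (4.12 to 17.1). These intervals cover counting error only, and no library had more than 7 counts of Hephl1.

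Tfrc (ENSMUSG00000022797, chromosome 16) takes up transferrin-bound iron, in the gut chiefly in dividing crypt cells. Its level was 156, 93.3, 111 and 121 CPM in B6 2, 3, 4 and 5, and 179, 139, 139.6 and 109.9 CPM in C3H 1, 3, 4 and 5. The strains overlapped, and C3H 1 was the highest and C3H 5 the lowest of the C3H libraries, the reverse of the other members. The log2 fold change was 0.24 ± 0.17 (edgeR adjusted p = 0.377), and in none of the 22 alternative fits did it pass, its adjusted p running from 0.143 to 0.743.

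Of the storage genes, Fth1 (ENSMUSG00000024661, chromosome 19), the ferritin heavy chain that oxidises iron for storage, was the most abundant member. It measured 2259, 2312, 3218 and 3078 CPM in B6 2, 3, 4 and 5, and 3002, 3307, 4690 and 6335 CPM in C3H 1, 3, 4 and 5. C3H 1 fell within the B6 range and the other 3 C3H libraries were above it. The means were 2717 ± 501 CPM in B6 and 4334 ± 1523 CPM in C3H, a log2 fold change of 0.67 ± 0.24 that missed the threshold (edgeR adjusted p = 0.0750). As for Heph, the call depended on the fit: Fth1 passed with DESeq2 (0.66, adjusted p = 0.0119), with library totals as the only scaling (0.71, adjusted p = 0.0144), with no filter (0.64, adjusted p = 0.0386) and without C3H 1 (0.80, adjusted p = 0.0278).

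Ftl1 (ENSMUSG00000050708, chromosome 7), the ferritin light chain, measured 531, 635, 656 and 719 CPM in B6 2, 3, 4 and 5, and 664, 673, 732 and 939 CPM in C3H 1, 3, 4 and 5. Only C3H 4 and C3H 5 lay above all B6 libraries. The log2 fold change was 0.24 ± 0.14 (edgeR adjusted p = 0.254). Ferritin genes have near-identical processed copies in the genome with which reads can be shared, so values of both chains and of the copies are uncertain in how reads were divided. The copy Ftl1-ps1 had a mean of 11.6 ± 1.75 CPM in B6 and 15.8 ± 2.49 CPM in C3H (1.35-fold, adjusted p = 0.0401, lost without any of 6 libraries), and Ftl1-ps2 was under 1 CPM in every library (log2 fold change -0.72, adjusted p = 0.109). Ftl2-ps had 34 counts in B6 and 29 in C3H, Fth-ps2 had 7 and 15, and Fth-ps3 had 18 and 26, too few to test.

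Of the regulators, Epas1 (ENSMUSG00000024140, chromosome 17) was at 109, 97.4, 160.5 and 108 CPM in B6 2, 3, 4 and 5, and 108, 151, 152 and 168 CPM in C3H 1, 3, 4 and 5. B6 4 and C3H 1 each sat with the libraries of the other strain. The log2 fold change was 0.29 ± 0.17 (edgeR adjusted p = 0.280), and it passed without B6 4 (0.46, adjusted p = 0.0424). The activity of Epas1 is set mainly by the stability of its protein, which RNA counts do not measure, and endothelial cells express it strongly as well. Among 10 endothelial markers the receptor genes Tek (2.90-fold, adjusted p = 1.22e-06) and Kdr (1.44-fold, adjusted p = 0.00395) were called higher in C3H, and Vwf, a clotting factor named after its values were seen, was lower (log2 fold change -0.83, adjusted p = 0.0282). The 3 called are 30.0% of the list, against 21.4% of all genes tested. The summed level of the 10 was 131 to 146 CPM in B6 and 141 to 186 CPM in C3H, lowest of the C3H libraries in C3H 5 where Epas1 was highest, and its part in the Epas1 values was not tested.

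Ireb2 (ENSMUSG00000032293, chromosome 9), an iron regulatory protein, measured 188, 142, 257 and 147 CPM in B6 2, 3, 4 and 5, and 138, 175, 196 and 223 CPM in C3H 1, 3, 4 and 5. The strains overlapped throughout, and the means were 184 ± 53.0 CPM in B6 and 183 ± 35.7 CPM in C3H. The log2 fold change was -0.01 ± 0.20 (edgeR adjusted p = 0.987), and its sign turned with the fit. Like Epas1, Ireb2 is controlled mainly as a protein, by iron-dependent degradation.

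Divided by exon length, mean levels in B6 ran from Fth1 at 783 ± 145 CPM per kilobase (SD, n = 4) through Ftl1 at 474 ± 58.5 and Heph at 77.1 ± 8.75 to Epas1 at 21.2 ± 5.07, Tfrc at 19.5 ± 4.26 and Ireb2 at 19.4 ± 5.59. Below them came Slc11a2 at 12.5 ± 0.890, Slc40a1 at 5.10 ± 1.43, Cybrd1 at 1.05 ± 0.354 and Hephl1 at 0.0159 ± 0.0157 CPM per kilobase. Epas1, Tfrc and Ireb2 overlapped in B6, and no other neighbours in that order did. In C3H the order was the same, but Slc40a1 at 17.4 ± 9.16 CPM per kilobase now overlapped Slc11a2 at 18.2 ± 4.41, and every neighbouring pair from Epas1 to Cybrd1 (4.87 ± 3.43) overlapped. Among the genes of the uptake and export route, Heph was thus the most abundant per length and Cybrd1 the least, leaving out Hephl1. Lengths are the union of a gene's exons in GENCODE M21, which can exceed the main transcript and then understates the level.

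The C3H libraries differed among themselves more than the B6 libraries for 6 of the 9 genes, against 53.3% of all genes tested. The SD of log2 CPM was 0.86 in C3H and 0.47 in B6 for Cybrd1, 0.82 and 0.39 for Slc40a1, 0.49 and 0.27 for Fth1, 0.36 and 0.17 for Heph, 0.35 and 0.11 for Slc11a2, and 0.23 and 0.18 for Ftl1. Over all genes the median SD was 0.19 in C3H and 0.17 in B6. The C3H spread of Cybrd1 stood at the 98.7th percentile of all genes tested, that of Slc40a1 at the 98.4th and that of Fth1 at the 93.0th. From lowest to highest C3H library the level varied 3.74-fold for Cybrd1 and 3.83-fold for Slc40a1. Tfrc, Epas1 and Ireb2 had a smaller spread in C3H than in B6. Without C3H 5 the C3H spread of Cybrd1 fell to 0.28, below that in B6, while for Slc40a1 it stayed above B6 at 0.68. With library totals as the only scaling, Ftl1 had a smaller spread in C3H (0.12) than in B6 (0.17) and Tfrc a larger one (0.41 against 0.34). The difference in spread between the strains was not tested.

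**Figure D2:**
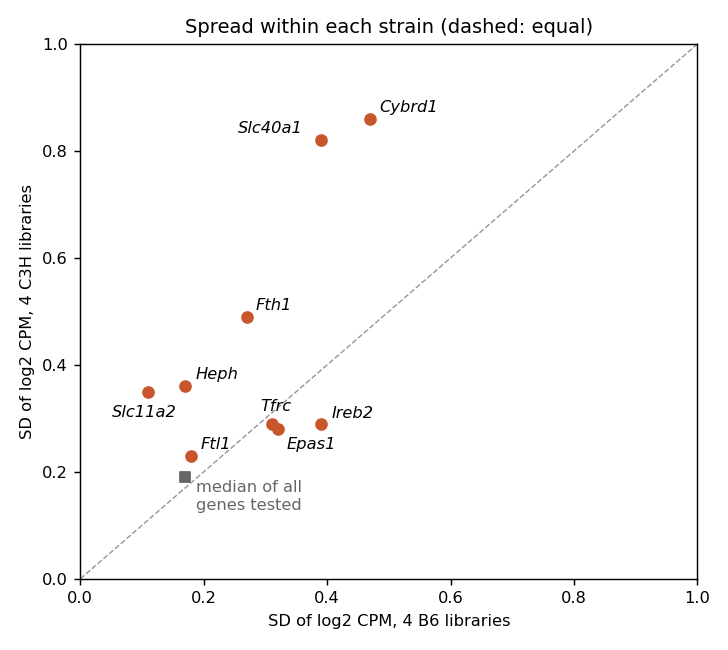
SD of log2 CPM over the 4 C3H libraries against that over the 4 B6 libraries for the 9 testable genes, with the median of all 18025 genes as a square and equality as a dashed line. Cybrd1 (0.86 against 0.47) and Slc40a1 (0.82 against 0.39) lie farthest above the line, and Tfrc, Epas1 and Ireb2 lie below it.

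The spread within C3H had a shared order. In 8 of the 9 testable genes C3H 1 was the lowest and C3H 5 the highest C3H library, and Tfrc had the opposite ends. Over all genes tested 3174, or 17.6%, had that order of ends, so it was not confined to the iron genes. Enterocyte markers moved the same way: the summed level of 10 of them was 38822 CPM in C3H 1, 43974 in C3H 3, 53082 in C3H 4 and 59965 in C3H 5, against 50624 to 55919.5 CPM in B6, with 0 of the 10 called between strains. The 10 crypt and proliferation markers, also with 0 called, ran the other way, as Tfrc did: 859.9 CPM in C3H 1, 632 in C3H 3, 579.6 in C3H 4 and 483 in C3H 5, against 518 to 706 CPM in B6. At an unadjusted p under 0.05 in edgeR's test 1 enterocyte marker and 1 crypt marker were lower in C3H. DESeq2 called 3 and 1 lower, and limma-voom 0 and 1. The markers of smallest adjusted p in the first list were Slc5a1, the glucose carrier of the brush border (log2 fold change -0.39, adjusted p = 0.152), and the cadherin Cdh17 (-0.34, adjusted p = 0.121), and in the second Pcna (-0.26, adjusted p = 0.0530) and Birc5 (0.23, adjusted p = 0.362). In bulk tissue fewer cells of a type and less RNA per cell cannot be told apart.

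Position along the intestine was read from 2 further lists, since iron uptake is greatest near the stomach. The summed level of 7 proximal markers was lowest in C3H 1 at 24973 CPM and highest in C3H 5 at 41077 CPM, and 24249.7 to 36245 CPM in B6. Apoa4, named after its values were seen, made up most of that sum, at 19396 CPM in C3H 1 and 32865 CPM in C3H 5. Gata4, Lct and Pdx1, named in the same way, had the same ends within C3H, and Onecut2, Fabp1 and Gip did not. The transcription factors Gata4 and Onecut2 had log2 fold changes of 0.0 and -0.04 between strains. Of the 7 proximal markers 3 had a log2 fold change above 0, and the median was 0.0. Only Gip, a hormone of the upper gut, was called, higher in C3H (2.44-fold, adjusted p = 0.000248). That is 14.3% of the list, against 21.4% of all genes tested. Distal markers were scarce, 17.1 to 27.5 CPM in B6 and 18.4, 10.5, 10.7 and 7.47 CPM in C3H 1, 3, 4 and 5. Of the 4 tested, the gut hormone gene Nts was called lower in C3H (log2 fold change -0.77, adjusted p = 0.00443), where 10.1% of all genes tested were. The hormone gene Pyy, under 1 CPM in every library, had a log2 fold change of 0.94 that did not pass (adjusted p = 0.106). The transcription factor Osr2, named after its values were seen, made up much of that list and measured 12.3, 4.55, 2.07 and 0.618 CPM in C3H 1, 3, 4 and 5, against 8.08 to 16.6 CPM in B6 (log2 fold change -1.24, adjusted p = 0.191). Fabp6, a defining gene of the ileum, had 2 counts in B6 and 20 in C3H. The part of position or cell content in the differences of the iron genes was not tested.

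**Figure D3:**
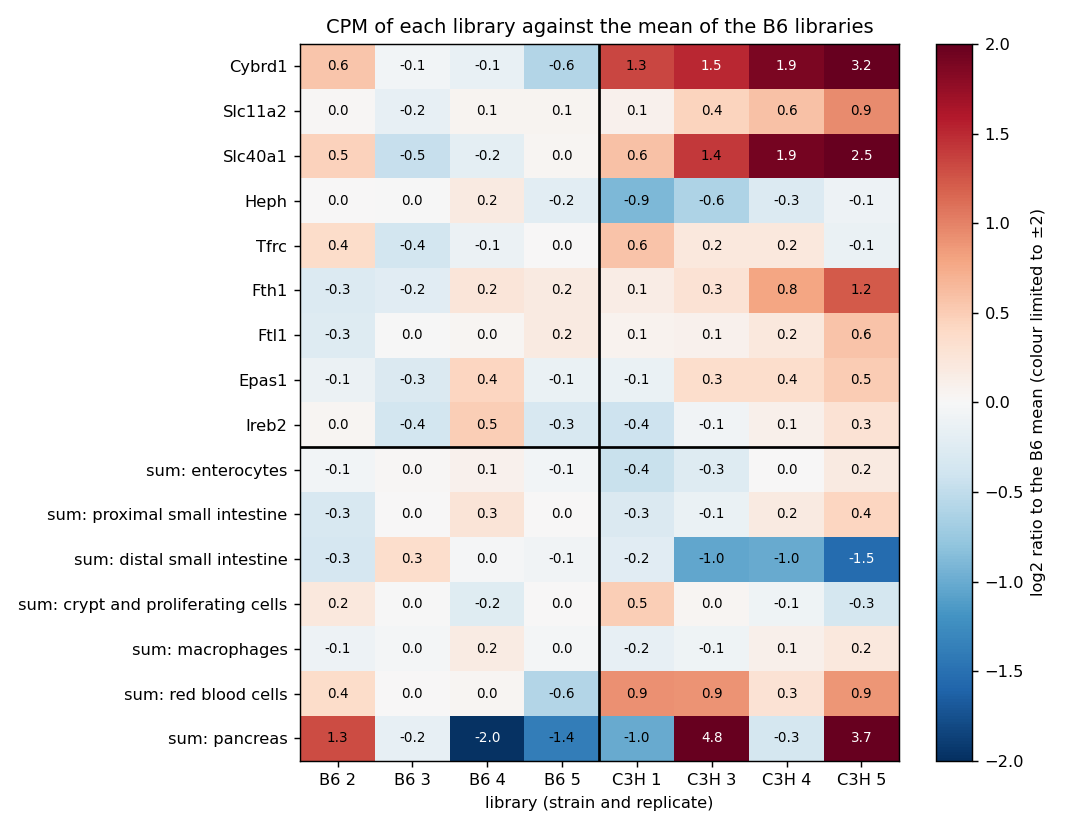
Log2 ratio of each library's CPM to the mean of the 4 B6 libraries, for the 9 testable genes (upper block) and for the summed CPM of 7 marker lists (lower block), with colour limited to ±2. Within C3H the enterocyte, proximal and macrophage sums, and the iron genes other than Tfrc, are lowest in C3H 1 and highest in C3H 5. The crypt sum and the distal sum are highest in C3H 1 and lowest in C3H 5. Apoa4 makes up most of the proximal sum, and Mertk is the largest part of the macrophage sum.

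With the log of the summed enterocyte level as a covariate, an alternative chosen after seeing these values, 6 of the 9 genes passed: Cybrd1, Slc40a1 and Slc11a2 remained higher in C3H, Fth1 (0.83, adjusted p = 0.00126) and Ftl1 (0.32, adjusted p = 0.0465) were also higher, and Heph (-0.31, adjusted p = 0.0118) was lower. With the crypt sum in its place 5 passed, Fth1 (0.67, adjusted p = 0.00397) and Heph (-0.44, adjusted p = 0.00584) beside the same 3. Calls rose over all 18025 genes too, from 3857 to 4283 with the enterocyte covariate and 4781 with the crypt covariate. Without both C3H 1 and C3H 5, the ends of the order, the same 3 genes were called as with all libraries, Cybrd1 at a log2 fold change of 1.70, Slc40a1 at 1.67 and Slc11a2 at 0.50. Pancreatic transcripts set C3H 3 (2757 CPM) and C3H 5 (1268 CPM) apart, against 24.3 to 237 CPM in the rest. C3H 5 was thus both rich in them and at the high end of the order. Without the 4 libraries richest in them (B6 2, B6 3, C3H 3 and C3H 5) Cybrd1 (1.97, adjusted p = 0.000449) and Slc40a1 (1.46, adjusted p = 0.0222) were called and Slc11a2 was not (0.29, adjusted p = 0.431).

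Of 47 further genes of iron handling, 42 could be tested, and 6 were higher and 3 lower in C3H, with a median log2 fold change of 0.12. The 9 called are 21.4% of the list, the same share as over all genes tested, so the count says nothing particular to iron handling. Haem handling held 3 of the higher genes among its 11, where 11.3% of all genes tested were higher, and its median log2 fold change was 0.06. Flvcr1, long known as a haem exporter of the plasma membrane, had the largest change of the list, from 96.1 ± 18.7 CPM in B6 to 228 ± 37.5 CPM in C3H (2.37-fold, edgeR adjusted p = 0.000156), with no overlap between strains. Blvra, which reduces biliverdin, was 1.24-fold higher (adjusted p = 0.0163, lost without B6 2 or C3H 4), and the haem transporter Slc48a1 was 1.25-fold higher (adjusted p = 0.0435, lost without any of 7 libraries). Without the 4 libraries richest in pancreatic transcripts Blvra (log2 fold change 0.39, adjusted p = 0.198) and Slc48a1 (0.37, adjusted p = 0.308) lost their calls, and Flvcr1 kept its call (1.07, adjusted p = 0.0122). Hmox1, which opens the haem ring, differed by a log2 fold change of 0.26 (adjusted p = 0.186), and Slc46a1, a folate carrier first described for haem, by 0.15 (adjusted p = 0.672).

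Mitochondrial iron use gave 2 of the other higher genes. The iron importer Slc25a37 was 1.43-fold higher (119 ± 13.8 CPM in C3H, 82.9 ± 6.84 in B6, adjusted p = 0.00353), and Iscu, the scaffold on which iron-sulphur clusters are built, was 1.42-fold higher (adjusted p = 0.000878), 1 of the 8 cluster assembly genes. Both calls held with each library left out in turn, and both were lost without the 4 pancreas-rich libraries (log2 fold change 0.45 against 0.52, adjusted p = 0.157, for Slc25a37, and 0.46 against 0.51, adjusted p = 0.0858, for Iscu). The last was Tmprss6, a protease that limits hepcidin in the liver, from 0.160 CPM in B6 to 0.359 CPM in C3H (2.22-fold, adjusted p = 0.0264), a low level whose call was lost without any of 5 libraries.

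The lower genes were Id1, a target of bone morphogenetic protein signalling that is often read as a sign of iron loading in the liver (from 74.0 ± 5.07 to 49.7 ± 4.63 CPM, log2 fold change -0.58, adjusted p = 0.000909), the iron chaperone Pcbp2 (-0.25, adjusted p = 0.0274) and lactoferrin, Ltf (-1.02, adjusted p = 0.0484, under 2 CPM and overlapping). The calls of Pcbp2 and Ltf were each lost without any of 5 libraries. Ncoa4, which delivers ferritin for breakdown, measured 162, 131, 242 and 134 CPM in B6 2, 3, 4 and 5 and 126, 212, 317 and 427 CPM in C3H 1, 3, 4 and 5. It shared the order of Fth1 within C3H, and its log2 fold change of 0.69 did not pass (adjusted p = 0.165). Other genes chosen for their part in iron regulation were not called: Aco1 (0.20, adjusted p = 0.202), Fbxl5 (-0.13, adjusted p = 0.550) and Hfe (-0.06, adjusted p = 0.738). Hepcidin itself, Hamp, was represented by 11 counts in all of B6 and 5 in all of C3H, too few to test.

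The oxygen-sensing pathway that contains Epas1 had 10 of 22 genes called higher in C3H and none lower (also 0 lower at an unadjusted p under 0.05 and with DESeq2 and limma-voom), with a median log2 fold change of 0.38 against 0.03 over all genes and 11.3% of all genes higher. Of 9 factors and sensors, 3 were higher. Hif1a, the sister factor of Epas1, rose from 107 ± 19.3 CPM in B6 to 161 ± 14.4 CPM in C3H (1.51-fold, adjusted p = 0.00591). The prolyl hydroxylases Egln1 (1.30-fold, adjusted p = 0.00701) and Egln3 (1.52-fold, adjusted p = 0.0105), which mark the factors for breakdown, were higher as well. Arnt, the shared partner subunit (log2 fold change -0.15, adjusted p = 0.297), and Vhl, which recognises the marked factors (0.08, adjusted p = 0.568), did not pass.

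Of 13 common targets of these factors 7 were called higher, against 11.3% of all genes tested. The targets not called, named after their values were seen, included Adm (log2 fold change 0.44, edgeR adjusted p = 0.312) and Pdk1 (0.23, adjusted p = 0.0926). Ddit4 (0.20, adjusted p = 0.176) and Vegfa (0.17, adjusted p = 0.424) were also not called. Below 0 and not called were Slc2a1 (-0.20, adjusted p = 0.283) and Hilpda (-0.26, adjusted p = 0.362). The collagen hydroxylase P4ha1 went from 7.30 ± 0.705 to 16.5 ± 3.11 CPM (2.27-fold, adjusted p = 0.000121), Ndrg1, a stress-response gene, from 105 to 235 CPM (2.24-fold, adjusted p = 0.000262), and the mitophagy receptor Bnip3 from 18.8 ± 2.37 to 34.9 ± 4.22 CPM (1.86-fold, adjusted p = 0.000164). The carbonic anhydrase Car9 was 1.77-fold higher (adjusted p = 0.000610) and Ankrd37 1.79-fold higher (adjusted p = 0.00635). The called targets P4ha1, Ndrg1, Bnip3, Car9 and Ankrd37 had every C3H library above every B6 library, as did 12.7% of all genes tested. The glycolytic regulator Pfkfb3 (1.67-fold, adjusted p = 0.0309) and the carbonic anhydrase Car12 (1.43-fold, adjusted p = 0.0417) overlapped between strains, and their calls were lost without any of 6 and of 7 libraries. Without the 4 libraries richest in pancreatic transcripts P4ha1, Ndrg1, Bnip3, Car9 and Ankrd37 kept their calls and the other 5 genes lost theirs. Of those 5, Hif1a was at a log2 fold change of 0.52 against 0.60 with all libraries (adjusted p = 0.191), Egln1 at 0.32 against 0.38 (0.239) and Egln3 at 0.52 against 0.60 (0.121). In that fit of 4 libraries 1675 genes were called, against 3857 with all 8. Many of these targets answer to both Hif1a and Epas1, and the counts do not say which factor was bound.

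**Figure D4:**
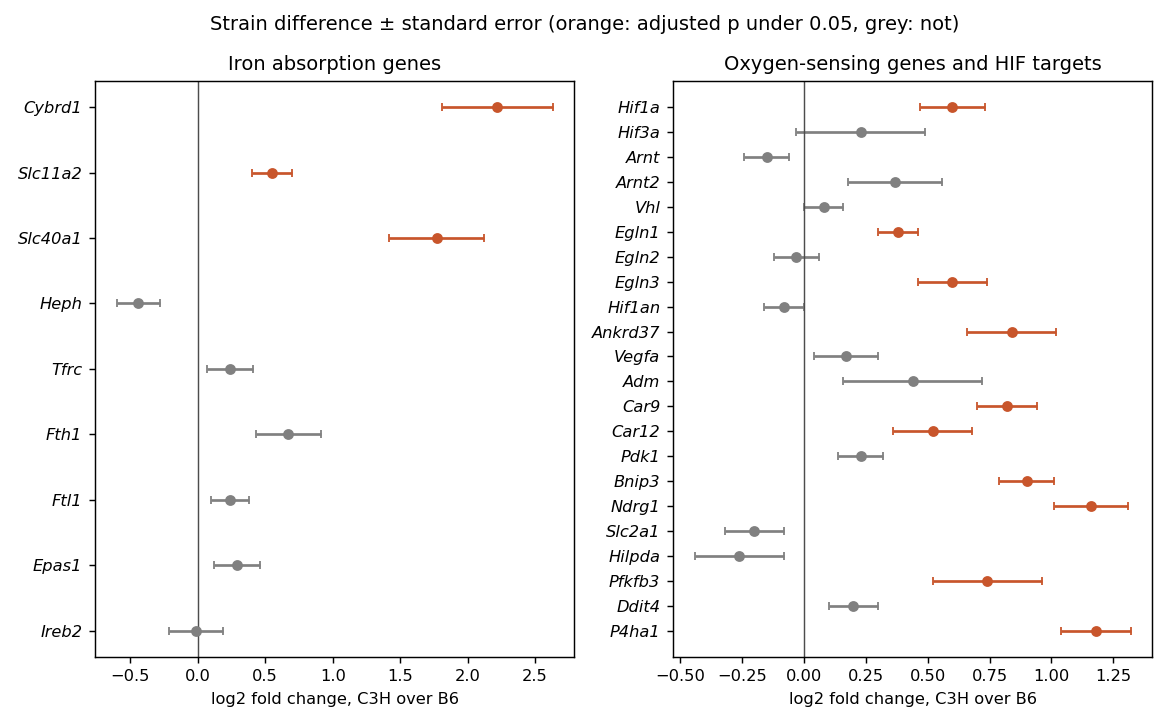
Log2 fold change of C3H over B6 with its standard error for the 9 testable iron absorption genes (left) and 22 oxygen-sensing genes and targets (right), with genes under an adjusted p of 0.05 in orange. Cybrd1 (2.22) and Slc40a1 (1.77) lie farthest right among the iron genes, Heph (-0.44) lies left of 0 in grey, and all 10 called genes of the right panel lie right of 0.

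Of 13 genes of zinc, copper and manganese handling, 1 was higher and 1 lower, or 15.4% called against 21.4% of all genes, and their median log2 fold change was 0.02. Ccs, the chaperone that loads copper into superoxide dismutase, measured 20.2 ± 1.61 CPM in B6 and 37.9 ± 2.94 CPM in C3H (1.87-fold, edgeR adjusted p = 2.15e-05), with no overlap. The zinc transporter Slc30a5 was lower (log2 fold change -0.32, adjusted p = 0.0197, lost without B6 3). The metallothioneins, which bind zinc and copper, were not called, with log2 fold changes of 0.32 for Mt1 (adjusted p = 0.393) and 0.86 for Mt2 (adjusted p = 0.103).

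Since Cybrd1 had the largest spread within C3H, the genes that followed it most closely were sought by the Pearson correlation of deviations from the strain means over the 8 libraries, among 10391 genes of at least 5 CPM. The nearest were Itpr2, a calcium channel of the endoplasmic reticulum (r = 0.937), Rasgrp1, an activator of Ras proteins (0.936), the lipase Abhd3 (0.934), Gm44250 (0.932) and Zcchc9 (0.918). Of the members, Slc40a1 (0.80), Heph (0.77) and Slc11a2 (0.753) followed Cybrd1 most closely, Fth1 (0.563), Ireb2 (0.544), Ftl1 (0.396) and Epas1 (0.379) less, and Tfrc ran against it (-0.344). These values describe 8 libraries that differ in cell content and depth, and C3H 5 weighs heavily in them. Heph followed Cybrd1 between libraries although its mean was lower in C3H and that of Cybrd1 higher.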

How the data were processed

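The authors deposited raw counts per gene, 56941 Ensembl genes by 8 libraries. Per the labels' protocols, libraries were made with a stranded mRNA kit from 200 ng of RNA (RIN above 7), and the submitters' processing notes name STAR 2.7.9a, HTSeq 2.0.2 and GRCm39. For the annotation release and the strand setting: not given in the sources used here. Each library held between 37205896 and 58251332 counts, and replicates differed far beyond counting noise (chi-square per degree of freedom of at least 23.3).

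Symbols and exon lengths came from GENCODE M21 (51948 genes had a symbol). Of 190 list entries 188 were found. Counts were filtered by filterByExpr (minimum count 10), scaled by TMM and tested with edgeR 4.0.16 (quasi-likelihood F test, R 4.3.3) as C3H against B6, with Benjamini-Hochberg adjustment over 18025 genes and a threshold of 0.05. The SE is the log2 fold change over the root of F. The procedure was tested on simulated data. Alternatives were other scalings, filters, DESeq2 1.42.0, limma-voom 3.58.1, left-out libraries and, chosen after seeing the data, 2 marker covariates and the fit without C3H 1 and C3H 5. Spread is the SD of log2 CPM (prior count 2).

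The members and lists were chosen with earlier results of these data known. Named genes are all members, every called gene of the iron, oxygen and metal lists, chosen controllers whether called or not, ferritin copies, the 2 genes of smallest adjusted p in each marker list, and the 5 genes most like the member of largest C3H spread.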

Additional observations from a re-analysis of the deposited data

Results flagged for a closer look

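Cybrd1 in C3H 5, at 53.2 CPM, stood apart from the other C3H libraries, of which the nearest was at 20.7 and the farthest at 14.2 CPM: the gap was 0.833 of the range of the 4 libraries, past Dixon's 95% critical value for 4 samples. Slc11a2 in B6 3 was low at 70.8 CPM, with the nearest B6 library at 80.8 (0.843 of the range). Arnt in C3H 1 was low at 43.6 CPM, with the nearest at 50.0 (0.903). Nts in C3H 4 was high at 6.47 CPM, with the nearest at 4.30 (0.905). Chance alone flags about 1 in 20 groups, or 6.4 of the 128 groups of 4 libraries examined, and 4 were flagged.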

How the results depend on the processing

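Cybrd1 and Slc40a1 kept their call in all 22 alternative fits, at log2 fold changes of 1.60 to 2.64 and 1.40 to 2.19. The count of members called, 3, was 5 with library totals as the only scaling, with no filter on low counts, with DESeq2 and with the crypt covariate, 6 with the enterocyte covariate, and 2 to 4 with each library left out. Over all genes 3857 were called as reported, 3596 with library totals, 4278 of 32072 with no filter and 4292 with DESeq2. Of the wider iron genes, 9 as reported, 4 were called at a threshold of 0.01, 3 without the 4 libraries richest in pancreatic transcripts, and 5 to 8 with each library left out, fewest without C3H 4. Of the oxygen-sensing genes, 10 as reported, 5 were called without the pancreas-rich libraries and 8 to 9 with each library left out. Fewer samples enter the fits that leave libraries out; for the other settings the cause was not tested.

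Signs turned only in genes that were not called. Ireb2 was at 0.04 with library totals, 0.02 with limma-voom and with the crypt covariate, 0.13 with the enterocyte covariate and -0.12 to 0.20 with each library left out. Without the pancreas-rich libraries Epas1 was at -0.06, Slc46a1 at -0.27, Vhl at -0.005 and Mt1 at -0.25. Hfe was at 0.0008 with library totals. With each library left out Fbxl5 ran from -0.23 to 0.02 and Slc46a1 from -0.05 to 0.29.

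The strains share the replicate numbers 3, 4 and 5. Deviations of same-numbered libraries correlated at 0.109, 0.136 and -0.044, so the numbers were not taken to pair the samples, and the libraries numbered 5 did not correlate best with each other. With the replicate as a block in those 6 libraries 3 members, 6 wider iron genes and 8 oxygen-sensing genes were called, against 3, 7 and 9 in the same libraries with no block. Ireb2 was at 0.15 with the block and 0.10 without it.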

Other observations

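Globin genes, which encode the haem-carrying proteins of red blood cells, were low, and 3 of the 4 in the list were called. Over the 6 red blood cell markers that could be tested 2 were called higher and 1 lower. Of all genes tested 21.4% were called, 11.3% higher and 10.1% lower in C3H. Hba-a1 measured 4.85 ± 0.925 CPM in B6 and 15.9 ± 4.49 CPM in C3H (3.29-fold, edgeR adjusted p = 0.000219), and Hbb-bs 14.9 ± 4.15 and 24.3 ± 3.39 CPM (1.63-fold, adjusted p = 0.0177), both called higher in C3H. Hba-a2 measured 2.63 ± 0.777 CPM in B6 and 0.0404 ± 0.0254 CPM in C3H and was called lower (log2 fold change -5.97, adjusted p = 1e-06). Hbb-bt, at 2.16 ± 0.656 and 1.99 ± 0.332 CPM, was not called (log2 fold change -0.10, adjusted p = 0.808). Hba-a1 and Hba-a2 are near-identical copies, so the division of reads between them is uncertain. The sum of 8 red blood cell markers was 17.1 to 33.3 CPM in B6 and 31.4 to 48.6 CPM in C3H, and it did not follow the order of the iron genes within C3H, since C3H 1 was the highest library and C3H 4 the lowest.

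Of the markers of other layers of the gut wall, none of 7 for fibroblasts and none of 6 for smooth muscle was called by edgeR's test, although all 7 fibroblast markers had a log2 fold change above 0 (median 0.21). At an unadjusted p under 0.05 the counts were 1 and 0, and DESeq2 and limma-voom called 0 in either list. Their summed levels were 338 to 513 CPM and 465 to 806 CPM in B6, and 369.7 to 543 CPM and 592 to 701 CPM in C3H. All 11 testable pancreatic markers had a log2 fold change above 0 (median 3.86). At an unadjusted p under 0.05 in edgeR's test 6 were higher in C3H, while DESeq2 called 1 higher and limma-voom 0. By edgeR's adjusted p only Clps was called higher in C3H (3.15-fold, adjusted p = 0.0257), where 11.3% of all genes tested were. The call was lost without B6 2, B6 3, B6 4 or C3H 3, and without C3H 3 the difference was 1.96-fold. Clps was highest in C3H 3 at 200.1 CPM and in C3H 5 at 98.8 CPM.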
